A study of Homo sapiens with 6 samples.

Results

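A set of 124 autosomal genes was strongly expressed in the control libraries of H1650 cells and at or close to 0 in the libraries labelled shSETD2. The members were selected on their FPKM (fragments scaled to gene length and library size) in all 6 libraries: at least 5 in every control library and under 0.1 in every shSETD2 library. They are 124 of the 15897 genes listed, and 124 of the 6329 autosomal genes that reached 5 FPKM in every control library (1.96%). With the groups exchanged, a rule referred to as the reverse rule, the same limits found 107 of 5863 genes (1.83%). Because the values of all 6 libraries chose the members, their difference between the groups is a description and was given no test.

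H1650 cells are an established line from a human lung adenocarcinoma. RNA was sequenced from 3 libraries labelled control, with a wild type genotype, and 3 labelled shSETD2, for stable lines made with lentiviral short hairpin RNAs against SETD2. The sources used here do not say whether the numbers 1 to 3 of the shSETD2 libraries stand for different hairpins or for repeats of 1 hairpin, nor whether the libraries of a group came from separate cultures, so the spread within a group may be technical. The comparison addressed which genes depend on SETD2, the enzyme that places trimethylation on lysine 36 of histone H3.

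Most of a cell's developmental regulators are kept silent once its lineage is set, and their promoters are often rich in CpG dinucleotides that can carry silencing marks or DNA methylation. Homeobox, T-box and basic helix-loop-helix transcription factors, neuronal cytoskeletal proteins, cell adhesion molecules and matrix proteins are typical of such lineage-restricted genes. H3K36 trimethylation, in contrast, is laid down along the bodies of transcribed genes as RNA polymerase II passes.

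The promoters of 5 members are shown: those of the 3 most highly expressed members with an entry, since they lead the results, and, for contrast, the 2 with the lowest CpG ratio (observed CpG over the number that the C and G content would give). Each runs from 250 bases before to 50 after the start of the gene, 5′ to 3′ on the gene's strand, from the RefSeq table of GRCh38.p14, with CpG dinucleotides in capitals.
ID4: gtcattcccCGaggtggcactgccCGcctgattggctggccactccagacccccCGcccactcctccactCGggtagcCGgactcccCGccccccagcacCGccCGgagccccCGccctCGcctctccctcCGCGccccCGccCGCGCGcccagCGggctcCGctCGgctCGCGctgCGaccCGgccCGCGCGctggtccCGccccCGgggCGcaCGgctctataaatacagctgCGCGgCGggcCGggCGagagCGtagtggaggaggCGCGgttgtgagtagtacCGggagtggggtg
UCHL1: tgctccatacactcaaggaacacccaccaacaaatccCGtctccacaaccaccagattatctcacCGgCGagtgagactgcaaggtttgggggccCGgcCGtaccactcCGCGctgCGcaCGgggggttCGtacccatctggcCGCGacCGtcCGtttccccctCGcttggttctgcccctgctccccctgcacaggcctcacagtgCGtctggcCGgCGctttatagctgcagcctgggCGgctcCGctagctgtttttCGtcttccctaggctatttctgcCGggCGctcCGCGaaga
POU4F1: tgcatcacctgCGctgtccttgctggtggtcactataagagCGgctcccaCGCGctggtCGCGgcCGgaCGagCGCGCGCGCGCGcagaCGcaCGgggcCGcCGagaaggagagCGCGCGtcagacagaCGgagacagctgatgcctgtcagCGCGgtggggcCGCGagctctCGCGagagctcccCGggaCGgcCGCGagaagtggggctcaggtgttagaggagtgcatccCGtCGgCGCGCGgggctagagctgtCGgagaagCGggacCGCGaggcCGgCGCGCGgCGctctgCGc
C19orf81: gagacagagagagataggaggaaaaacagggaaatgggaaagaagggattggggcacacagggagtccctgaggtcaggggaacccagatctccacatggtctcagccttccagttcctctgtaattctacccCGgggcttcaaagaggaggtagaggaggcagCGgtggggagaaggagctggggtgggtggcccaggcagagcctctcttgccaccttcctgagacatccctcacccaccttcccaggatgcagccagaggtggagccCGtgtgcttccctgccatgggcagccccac
CECR2: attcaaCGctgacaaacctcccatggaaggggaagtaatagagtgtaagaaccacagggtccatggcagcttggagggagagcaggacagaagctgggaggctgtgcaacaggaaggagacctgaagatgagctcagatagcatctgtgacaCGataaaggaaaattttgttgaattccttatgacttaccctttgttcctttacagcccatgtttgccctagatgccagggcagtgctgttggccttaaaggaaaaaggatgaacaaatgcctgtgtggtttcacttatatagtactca
The ID4 promoter (chr6:19837120-19837419, GRCh38, plus strand) held 39 CpG at a ratio of 0.909, that of UCHL1 (chr4:41256678-41256977, plus strand) 25 at 0.870, and that of POU4F1 (chr13:78603503-78603802, minus strand) 47 at 1.22. The promoters of C19orf81 (chr19:50649195-50649494, plus strand) and CECR2 (chr22:17359699-17359998, plus strand) held 3 and 2 CpG, at ratios of 0.113 and 0.128. The letters TATAAA, searched on both strands, were found in the windows of ID4 and UCHL1. Of all listed autosomal genes with an entry, 8.88% had them in any of their promoters. The letters GGGCGG, searched in the same way with no overlap with the former, were found in the same windows and in any promoter of 76.9% of those genes.

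Of the 124 members, 91 had a promoter entry and 76 of these (83.5%) were CpG-rich (ratio of at least 0.6 and GC content of at least 50%). A gene with several entries counted as CpG-rich if any of them was, in the members and in the background. Among genes with an entry, the background share was 86.0% for all listed autosomal genes. It was 93.3% for those at 5 FPKM or more in every control library, so among genes with an entry a CpG-rich promoter is not particular to the members. Entries were missing for 33 members, among them NEFM, NEFL, UNC5B, MSI1 and SNAI2. Entries were matched for only 73.4% of the members and 70.7% of all listed autosomal genes, both under the 80% needed. For the genes at 5 FPKM or more in every control library 82.8% were matched. A test of their promoter composition against that of other genes is therefore void, and the shares above are given as background only.

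SETD2 itself was measured first. Control libraries 1 to 3 held 18, 10.2 and 17.6 FPKM and the libraries labelled shSETD2 8.97, 8.09 and 12.2, so that control library 2 lay below shSETD2 library 3 and the groups overlapped. The difference of -0.58 ± 0.24 (SE) on the log2(FPKM + 1) scale did not pass the threshold (limma, adjusted p = 0.0641, n = 3 per group). By qPCR and western blotting, which were not examined here, the authors reported lower SETD2 in H1650 cells carrying hairpins against it.

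Markers of cell type moved with the groups as well. Of 14 lung epithelium markers 4 were listed, and their summed FPKM was between 16.7 and 17.4 in control and between 9.96 and 10.5 in shSETD2 libraries. All 4 were tested, and 3 were lower and 1 was higher in the shSETD2 libraries (limma, adjusted p under 0.05). Of all 14068 genes tested, 51.8% were lower and 26.8% higher, which is the background to each count of markers given here. The 11 listed of 15 epithelium markers summed to between 16.7 and 18 in control and between 406 and 459 in shSETD2 libraries, and the 8 listed of 12 markers of renal epithelium and embryonic kidney lines to between 8.16 and 10.6 and between 59.3 and 70.4. The 8 listed of 12 mesenchyme markers summed to between 96.1 and 112 in control and between 167 and 177 in shSETD2 libraries. They did not move as a group: of the 5 tested, 2, COL1A1 and ACTA2, were lower. The 3 higher were VIM, FN1 and CDH2, the last by only 0.168 on the log2(FPKM + 1) scale. Of the defining markers of the labelled tissue, NKX2-1 had a mean of 1.65 in control and was listed at 0 in every shSETD2 library, EPCAM had 0.710 and 0.220, CDH1 had 1.27 and 0.0120, and NAPSA and SFTPB were not among the rows used here. Other markers moved the opposite way: 4 of the 6 epithelium markers tested were higher in the shSETD2 libraries, namely the keratin genes KRT7 (means of 0.0208 and 81.9), KRT8 (2.86 and 93.9) and KRT18 (10.04 and 254.6) and the epithelial transcription factor ELF3 (0.221 and 4.23), as was the lung marker LAMP3 (0.584 and 1.23). PAX8, a renal marker, had means of 0.0172 and 30.8. Of the 8 renal markers tested 5 were higher, while 3, GATA3, EMX2 and LRP2, were lower in the shSETD2 libraries. All 6 libraries carry the label H1650, but with the SETD2 values overlapping, a difference of cell line between the groups cannot be told apart from an effect of the hairpins, and every value that sets control against shSETD2 libraries is to be read with this limit. The part of the marker shifts in the members' values was not tested, and in bulk RNA fewer cells of a type and less RNA per cell cannot be told apart.

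The members' control values agreed closely among libraries. Their summed FPKM was 1218, 1212 and 1210 in control libraries 1 to 3 and 1.16, 1.18 and 1.32 in shSETD2 libraries 1 to 3, and the highest value of any member in an shSETD2 library was 0.0965. In the shSETD2 libraries 74 members were listed at 0 in all 3, 17 in 2, 9 in 1 and 24 in none. The mean control FPKM ranged from 5.04 to 42.6 with a median of 8.07, against 11.3 for all autosomal genes at 5 or more in every control library. Only 8 members (6.45%) reached a mean of 20, against 22.6% of those genes. The coefficient of variation over the control libraries had a median of 5.40% for the members and 4.69% for those genes.

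Among 14068 genes whose FPKM averaged 0.5 or more, limma called 7283 lower (51.8%) and 3774 higher (26.8%) in the shSETD2 libraries. All 124 members were among the lower genes, which the rule that chose them fixes. The median difference of the members on the log2(FPKM + 1) scale was -3.16, against -0.29 for all genes tested, and since most members were listed at 0 in the shSETD2 libraries its size depends on the pseudocount. With median ratio scaling, which brings the median of all genes to 0.00, 5274 genes were lower and 5343 higher, and the members' median was -3.0.

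By hand-made classes of function, the members comprised 25 transcription factors, 20 signalling and ubiquitin proteins, 14 matrix and secreted proteins, 13 receptors, channels and transporters, 11 cytoskeletal and motor proteins, 11 adhesion, guidance and synapse proteins, 11 enzymes of metabolism and glycosylation, 6 RNA-binding and chromatin proteins, 2 long intergenic RNAs and 11 others. The median control FPKM of a class lay between 6.38, for the others, and 10.2, for the adhesion, guidance and synapse proteins.

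**Figure D1:**
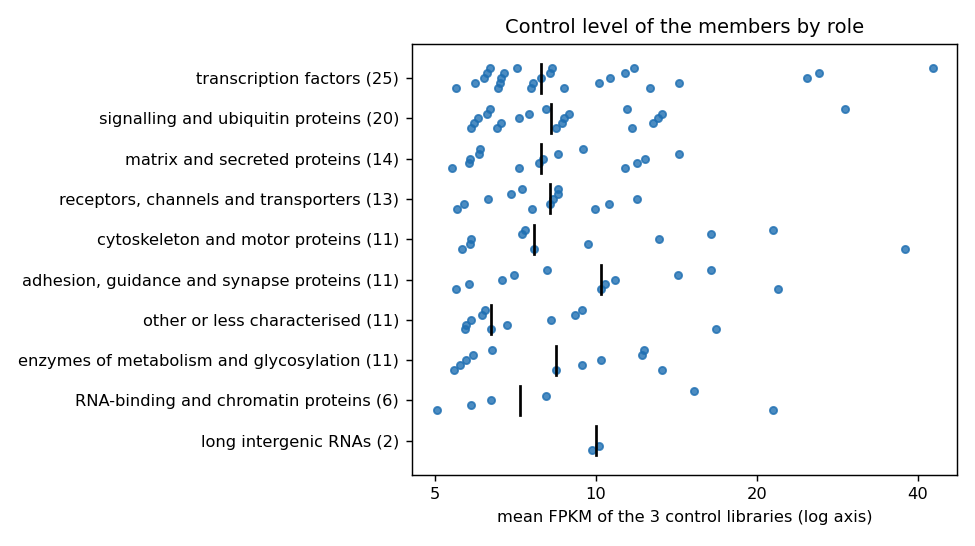
Mean FPKM of each member over the 3 control libraries (x axis, logarithmic) by class of function (y axis, number of members in parentheses); each point is a gene and each black line the median of the class. Class medians lie between 6.38 and 10.2 FPKM, while single members reach 42.6.

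The highest member was ID4 (ENSG00000172201.11_3, chr6:19837617-19840915, GRCh37), an inhibitor of basic helix-loop-helix transcription factors that does not bind DNA itself. ID4 had 42.7, 42.7 and 42.4 FPKM in control libraries 1 to 3 and 0.0708, 0 and 0 in shSETD2 libraries 1 to 3. The control values lay within 1 FPKM of each other, and only shSETD2 library 1 held any signal.

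Among the homeodomain factors, POU4F1 (chr13:79172497-79177695), a POU factor of sensory neurons, had 26.1, 26.4 and 25.8 FPKM in the control libraries and 0, 0.0246 and 0.0132 in the shSETD2 libraries. HOXD13 (chr2:176957619-176960666), which patterns the distal limb and the urogenital tract, had 24.7, 25.1 and 24.7 and was listed at 0 in every shSETD2 library. EN2, a factor of the midbrain and hindbrain, had 11.9, 13.9 and 12.1, and ISL2, a LIM factor of motor neurons, 10.9, 10.5 and 12.6 in the control libraries. Both were listed at 0 in all shSETD2 libraries. HOXA11, a factor of limb and kidney development, had 10.8, 10.8 and 10.2 FPKM in control and 0, 0 and 0.0306 in shSETD2 libraries. CDX2, a regulator of the intestinal epithelium, had 7.13, 6.63 and 6.12 in control, MSX2, a factor of craniofacial and limb development, 6.41, 6.8 and 5.85, and HMX1, a factor of eye and ear development, 5.4, 6.12 and 7.02. POU3F3, a neural POU factor, had 5.5, 7.01 and 5.31, and SIX2, which maintains nephron progenitors, 5.19, 5.84 and 5.44. These last 5 factors were listed at 0 in each shSETD2 library, and SIX2 lay only just above the limit of 5.

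Factors of the epithelial to mesenchymal transition and of the heart and pharynx followed. SNAI2, a zinc finger repressor of epithelial genes, had 14.4, 14.5 and 14.1 FPKM in the control libraries and 0, 0 and 0.0321 in the shSETD2 libraries. TWIST1, a basic helix-loop-helix factor of mesenchyme, had 7.34, 8.02 and 8.37 in control and was listed at 0 in all shSETD2 libraries. In the control libraries TBX20, a cardiac T-box factor, had 8.39, 9.33 and 7.15 FPKM and TBX1, a T-box factor of the pharyngeal arches, 7.79, 8.69 and 8.21. SALL1, a zinc finger factor of kidney development, had 7.09, 8.01 and 7.82. These 3 had no signal in any shSETD2 library. ZNF280B, a zinc finger protein, varied more among control libraries, with 6.64, 7.22 and 8.85 FPKM, and was also listed at 0 in the shSETD2 libraries. Further members of this class were FOXF2, HAND1, PLAGL1, MAF, ZNF704, EBF3 and NFIA, whose control means lay between 6.28 and 11.8.

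The neuronal cytoskeleton gave some of the highest members. The neurofilament subunit genes NEFM and NEFL had 37.7, 39.1 and 36.5 and 23.7, 16.4 and 24.1 FPKM in control libraries 1 to 3, and KIF1A, a kinesin that carries synaptic vesicle precursors, 16.7, 16.2 and 16.4. INA, a further neuronal intermediate filament, had 6.98, 8.04 and 7.11, and ADD2, which links spectrin to actin, 7.17, 7.47 and 7.19. All 5 were listed at 0 in each shSETD2 library, and the control values of NEFL spread more than those of the other 4. FLNC, an actin crosslinker of muscle, had 12.8, 12.8 and 13.7 in control and 0.0141, 0.00930 and 0.00527 in shSETD2 libraries. SH3PXD2A, a scaffold of podosomes, had 6.38, 6.17 and 10.5 in control and 0.0110, 0.0123 and 0 in shSETD2 libraries, control library 3 being the highest. The remaining cytoskeletal members were DPYSL5, IFFO1, FMN2 and KIF26A, with control means between 5.62 and 9.67.

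Adhesion and synapse members included NRN1, a surface protein that promotes neurite growth, with 20.3, 22.3 and 23.1 FPKM in the control libraries. The protocadherins PCDH10 and PCDH9 had 15.1, 14.3 and 13.4 and 10.7, 11.2 and 10.7, and SDK2, an immunoglobulin adhesion molecule of retinal synapses, 10.4, 10.7 and 10.2. Of these 4, only PCDH10 held any signal in an shSETD2 library, with 0, 0 and 0.00700. SLITRK5, a synapse organiser, had 10.3, 10.6 and 9.9 in control and 0.0338, 0.0479 and 0.0656 in shSETD2 libraries. RIMS4, a protein of the presynaptic active zone, had 7.96, 7.63 and 8.78, NPTX2, a secreted pentraxin that gathers glutamate receptors, 7.18, 7.32 and 6.6, and NRCAM, a neural adhesion molecule, 5.26, 5.59 and 5.57 in control. These 3 were listed at 0 in the shSETD2 libraries. CNTN1, a contactin of axons, had 6.01, 5.35 and 6.03 in control and 0.00879, 0 and 0.0112 in shSETD2 libraries. Of the guidance receptors, UNC5B, which binds netrins, had 16.7, 16.4 and 16.2 in control and 0.0454, 0.0359 and 0.0415 in shSETD2 libraries, and EPHA7, an ephrin receptor, 6.74, 6.59 and 6.74 and 0, 0.00782 and 0.

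Members of the matrix and secreted class were led by SERPINF1, which encodes the antiangiogenic factor PEDF, with 15.4, 13 and 14.5 FPKM in the control libraries and 0 in the others. FBN2, a fibrillin of developing tissue, had 12.5, 12.5 and 12.1 in control and 0.00865, 0.000693 and 0.00629 in shSETD2 libraries. TIMP3, an inhibitor of metalloproteinases, had 11.7, 11.4 and 12.7 in control, GPC6, a glypican, 10.9, 11.4 and 11.6, and NID2, a nidogen that links laminin to collagen IV, 7.97, 7.71 and 7.84. The 3 genes were listed at 0 in each shSETD2 library. FRAS1 and FREM2, which form a complex at the basement membrane of developing skin and kidney, had 5.5, 5.36 and 5.33 and 6.05, 6.15 and 6.04 in control. FRAS1 had 0.00692, 0.00918 and 0 in shSETD2 libraries, whereas FREM2 was listed at 0. SMOC1, a matricellular protein, had 8.54, 8.64 and 8.28 in control and 0, 0.0218 and 0.0163 in shSETD2 libraries, and EMILIN3, an elastin-associated glycoprotein, 6.31, 5.51 and 6.31 and 0 throughout. BMP7, a ligand of the TGF-β family, had 7.64, 7.22 and 6.71 in control and was listed at 0 in the shSETD2 libraries. The class also held CALCB, SULF2 and the neighbouring genes IGFBP2 and IGFBP5.

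UCHL1 (chr4:41258430-41270472), a ubiquitin hydrolase abundant in neurons, led the signalling and ubiquitin class with 29.5, 28.1 and 30.2 FPKM in the control libraries and 0 in each shSETD2 library. TUB, a membrane-associated protein of neurons, had 13, 13.7 and 13.3, and CCDC8, a partner of the cullin 7 ubiquitin ligase, 13.2, 12 and 13.3 in control. Both were listed at 0 in the shSETD2 libraries. ARL10, a small GTPase of the ARF-like family, had 13.1, 13 and 13.1 in control and 0.00571, 0.00774 and 0.0184 in shSETD2 libraries. The Rac activator TIAM1 varied among control libraries, with 6.89, 8.55 and 11.3 FPKM, and had 0.0201, 0.0564 and 0.0338 in shSETD2 libraries. The planar polarity gene VANGL2 had 9.46, 8.7 and 7.78 in control, and the adenylate cyclase gene ADCY1 5.98, 6.69 and 6.08. Both were listed at 0 in each shSETD2 library. Of the remaining members of this class, SPDYC is given with the oncofetal genes, and DIRAS1, SESN3, ZYG11A, PPM1E, PPP1R14C, TNIK, IQGAP2, RNF150, MATK, LONRF2, RAB39A and RNF157, had control means between 5.93 and 11.7.

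Among RNA-binding proteins, LIN28B (chr6:105384491-105531207), which blocks the maturation of let-7 microRNAs in embryonic cells, had 22.3, 21.5 and 20.7 FPKM and MSI1, a translational regulator of neural progenitors, 15.8, 14.5 and 15.6 in the control libraries. Neither had any signal in the shSETD2 libraries. PNMA8A and PNMA2, of the paraneoplastic Ma antigen family, had 17.3, 16.5 and 16.6 and 5.47, 5.89 and 6.15 in control, PRAME, a cancer-testis antigen, 5.64, 5.48 and 6.09, and SPDYC, an activator of cyclin-dependent kinases in germ cells, 5.31, 6.32 and 5.93. These 4 were also listed at 0 in the shSETD2 libraries. The other RNA-binding and chromatin members, CECR2, RBM20, AUTS2 and MYEF2, had control means between 5.04 and 8.06, and the less characterised PALD1, C17orf51, MGARP, HBQ1, KLRG2, BEND4, SUSD5 and C19orf81 between 5.71 and 9.44.

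The receptors, channels and transporters had control means between 5.52 and 11.9 and included the receptor tyrosine kinases KIT and FLT4, the receptor NOTCH3 and the T-type calcium channel gene CACNA1H. NOTCH3 had 8.27, 9.07 and 8.19 FPKM in control and 0.0664, 0.0584 and 0.0325 in shSETD2 libraries, while KIT had 6.64, 6.09 and 6.16 in control and was listed at 0 in all shSETD2 libraries. The other members of this class were SLC35F1, SLC6A15, KCNJ8, LPAR3, GPR27, ANO5, JPH1, ATP1B2 and P2RY1. Among the enzymes, the mitochondrial creatine kinase genes CKMT1A and CKMT1B had 14.1, 13.2 and 12.5 and 12.1, 13.1 and 11.3 in control and 0.0567, 0.0186 and 0.0544 and 0.0520, 0 and 0 in shSETD2 libraries. These are near-identical copies between which reads could have been split, so the share of each is uncertain. The other enzymes, CA8, CPVL, ELOVL2, HS3ST3A1, GALNT12, GALNT13, SULT4A1, PHYHD1 and MARC1, had control means between 5.44 and 12.3. The 2 long intergenic RNAs were AL133325.3, with 10.3, 10.3 and 9.78 FPKM in control and 0 in each shSETD2 library, and AC010997.3. AC010997.3 had the widest spread, with 15.2, 7.48 and 6.83 FPKM in the control libraries (coefficient of variation 47.4%), and 4 other members exceeded 20%: SH3PXD2A, TIAM1, HBQ1 and NEFL.

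**Figure D2:**
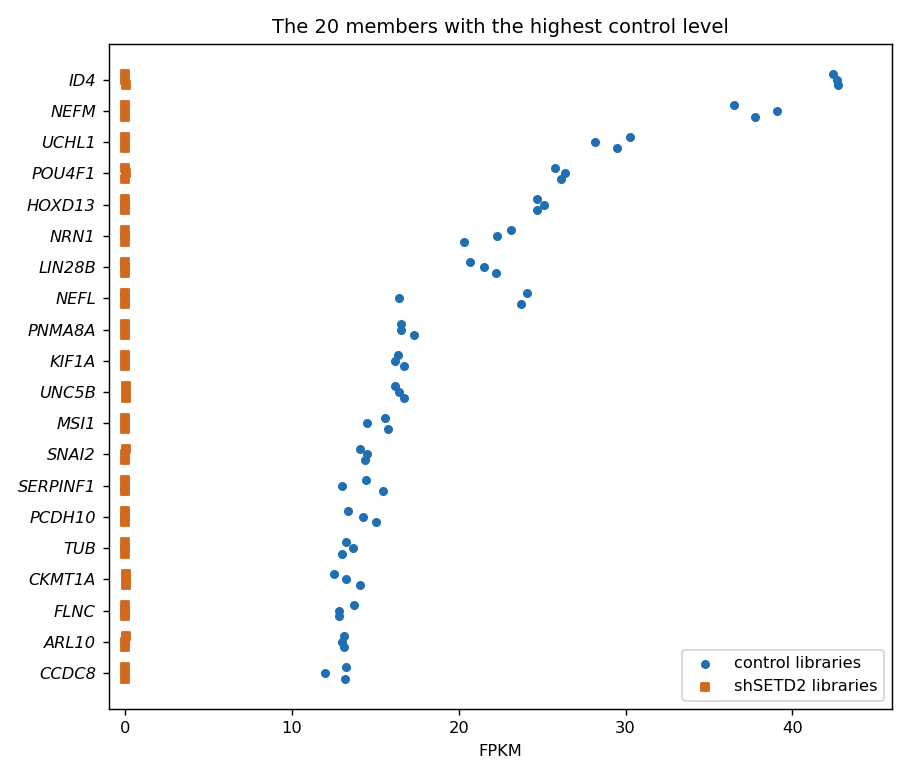
FPKM (x axis) of the 20 members with the highest control mean (y axis) in each of the 3 control libraries (blue circles) and 3 shSETD2 libraries (orange squares). Control values run from 12 for CCDC8 to 42.7 for ID4, and every shSETD2 value lies under 0.1.

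At the limits of the rule, the members with the lowest control values were SULT4A1 with a lowest value of 5.02 FPKM, MYEF2 with 5.04, P2RY1 with 5.14, SIX2 with 5.19 and MARC1 with 5.25. Just outside lay NRTN with a lowest value of 4.89, CADM1 and TRIM71 with 4.78 each, SLIT2-IT1 with 4.68 and WIPF1 with 4.65. The members nearest to the upper limit in the shSETD2 libraries were MARC1 with a highest value of 0.0965, SESN3 with 0.0952, GALNT12 with 0.0852, IFFO1 with 0.0822 and LONRF2 with 0.0770. Just outside lay RGS16 with a highest value of 0.102, POU3F2 with 0.104, GAS1 with 0.110, NPAS1 with 0.117 and AC138904.1 with 0.155.

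The relatives of the members were examined with gene lists written by hand, and their other genes did not all move with the members. Of the HOX genes of groups 9 to 13, 15 were listed and 2 were members, and of the 12 others tested 11 were lower and 1 was higher in the shSETD2 libraries (limma, adjusted p under 0.05), counts that held under each of 3 other scalings. HOXB9 fell from a mean of 50.2 to 1.34 FPKM and HOXA9 from 14.6 to 1.26, whereas HOXC9 rose from 5.37 to 6.85. The shares of all tested genes called lower and higher, 51.8% and 26.8%, are the background to the list counts of the main fit. For counts under other scalings the background differs. With median ratio scaling 5274 of 13969 genes were lower and 5343 higher, and with quantile normalization 5875 of 14065 were lower and 4706 higher.

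For the NK, EN, MSX, HMX and CDX homeobox genes, 4 of 22 listed were members, and 13 of the 15 others tested were lower and 1 was higher. EN1, the paralog of EN2, was at a mean of 2.08 FPKM in control and listed at 0 in the shSETD2 libraries. In the list of SIX2, SALL1 and their relatives, with the EYA cofactors, 2 of 12 were members and 8 of the 9 others tested were lower, the exception being SIX5, which rose from 4.2 to 6.29. Of the POU and LIM genes, 3 of 16 were members, and of the 12 others tested 8 were lower and 3 higher, although with quantile normalization only 5 of 11 were lower. Of the T-box genes, 2 of 8 listed were members, and all 4 others tested were lower, 3 of them with median ratio scaling. Among EMT factors 2 of 9 were members, and of the 6 others tested 3 were lower and 2 were higher. SNAI1 rose from 2.82 to 5.81 FPKM while SNAI2 was among the members, and FOXC2 rose from 1.15 to 15.0. With median ratio scaling 2 of 5 other EMT factors were lower and 2 higher, and with quantile normalization 1 of 4 was lower and 2 were higher.

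Genes of kidney progenitors and nephron formation included 6 members of 24 listed. Of the 16 others tested, 11 were lower and 5 higher: PAX8 rose from a mean of 0.0172 to 30.8 FPKM and PAX2 from 0.739 to 9.93, while EYA1, at 2.73 in control, was listed at 0 in the shSETD2 libraries. In the neuronal adhesion and synapse list, 9 of 32 were members, and 16 of the 20 others tested were lower and 4 higher, with 11 lower after quantile normalization. L1CAM, an adhesion molecule of axons, rose from 0.582 to 12.5. The neuronal cytoskeleton list held 5 members of 18, and of the 12 others tested 9 were lower and 3 higher, among the latter TUBB3, a neuronal tubulin, from 1.32 to 16.1, and STMN3, from 7.48 to 79.8. In the axon guidance list 2 of 34 were members and 22 of the 29 others tested were lower, but 17 with median ratio scaling and 15 of 28 with quantile normalization. EPHA2, of the same receptor family as the member EPHA7, rose from 3.98 to 137.

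Among the basement membrane and matrix genes, 8 of 40 listed were members, and of the 29 others tested 16 were lower and 11 higher. The 16 include GPC3, which meets both FPKM limits of the rule and is no member only because it lies on chromosome X. The laminin gene LAMB3 rose from a mean of 0.0743 to 119 FPKM, and TIMP1 rose from 26.3 to 112 while its relative TIMP3 was a member. The insulin-like growth factor binding proteins also differed among themselves. IGFBP2 and IGFBP5 were members, and the 3 others tested, IGFBP4, IGFBP6 and IGFBP7, rose from 0.699, 0.434 and 0.602 to 24.5, 22.9 and 75.3. The oncofetal list had 5 members of 13, and of its 6 other genes tested 3 were lower and 2 higher. IGF2BP1, an oncofetal RNA-binding protein, fell from 54.2 to 11.4.

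**Figure D3:**
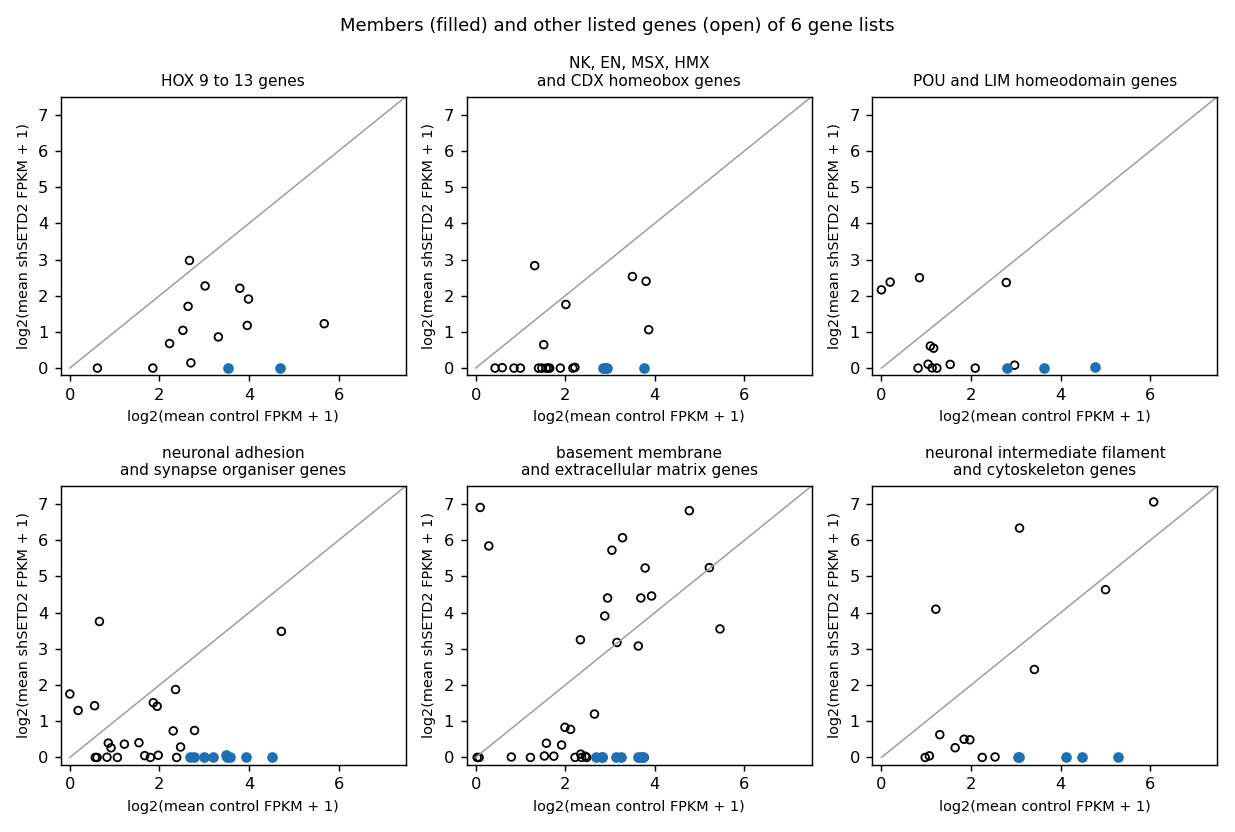
Mean control (x axis) against mean shSETD2 (y axis) expression as log2(mean FPKM + 1) for the listed genes of 6 lists; blue points are members, open points other genes and the grey line equality. Members lie on the x axis by the rule that chose them, and open points are found on both sides of the line, above it in the matrix panel for LAMB3.

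All 124 gene identifiers matched the GENCODE annotation of GRCh37, with overlapping positions. By the biotypes in the deposited table, the members were 122 protein-coding genes and 2 long intergenic RNAs. One of the former, C17orf51, has the name of a long intergenic RNA, LINC02693, in that annotation. Their canonical transcripts had a median of 7 exons, from 1 exon in 6 members, CCDC8 and POU3F3 among them, to 74 exons in FRAS1. The genes spanned a median of 46 kb, against 31.4 kb for the autosomal genes at 5 FPKM or more in every control library and 13.2 kb for the 107 genes of the reverse rule. Within the set, the transcription factors spanned a median of 6.70 kb and the matrix and secreted class 114 kb.

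Members were found on every autosome except chromosome 18, where 0 of 73 genes at 5 or more in every control library were members. Chromosome 7 held the most, with 11 members of 311 such genes (3.54%). The highest shares were those of chromosome 13, with 6 of 128 (4.69%), and chromosome 4, with 8 of 212 (3.77%), and the lowest above 0 were those of chromosome 9, with 2 of 274 (0.730%), and chromosome 1, with 6 of 755 (0.795%). The genes of the reverse rule made up 1 of 74 genes (1.35%) on chromosome 13 and 7 of 164 (4.27%) on chromosome 4. These shares rest on few members per chromosome and were not tested.

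**Figure D4:**
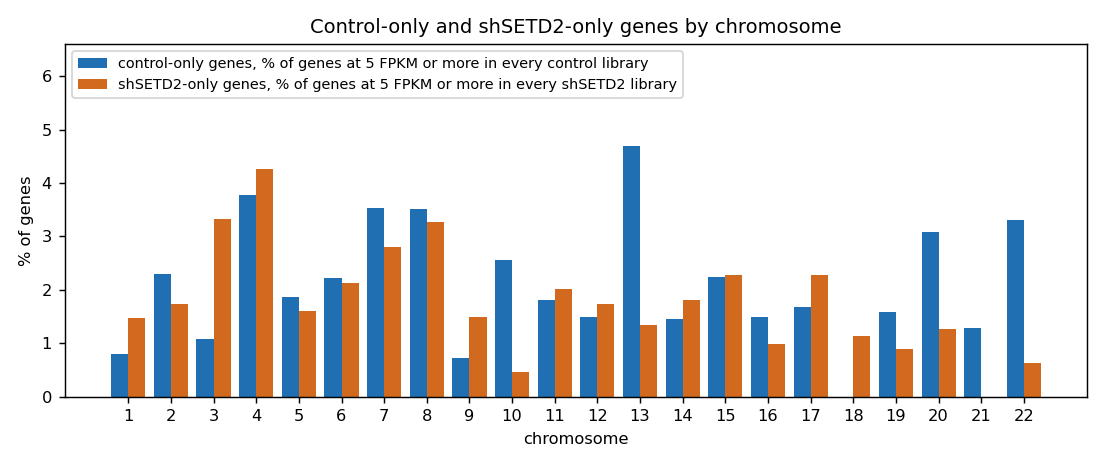
Members as a percentage of the genes at 5 FPKM or more in every control library (blue bars) and genes of the reverse rule as a percentage of those at 5 or more in every shSETD2 library (orange bars), for each autosome (x axis). The blue bars run from 0% on chromosome 18 to 4.69% on chromosome 13.

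A median of 11.4 Mb lay between neighbouring members, a spacing that depends on how few genes the set holds. Another member lay within 1 Mb of 20 of the 124 (16.1%), which formed 10 pairs and no larger group, whereas 38 of the 107 genes of the reverse rule (35.5%) had another such gene within 1 Mb. Of the 6329 autosomal genes at 5 FPKM or more in every control library, a far larger set, 98.3% had another such gene within 1 Mb. No test of these differences was made, and the counts depend on the distance, being 10 members at 0.1 Mb and 31 at 2 Mb.

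Of the 10 pairs, 5 lay within 100 kb. IGFBP2 (chr2:217497551-217529159) and IGFBP5 (chr2:217536828-217560248) stood tail to tail 7.67 kb apart, with 9.69, 9.72 and 9.0 and 6.06, 5.35 and 6.0 FPKM in control and 0, 0.0240 and 0 and 0, 0 and 0 in shSETD2 libraries. NEFM (chr8:24770525-24776611) and NEFL (chr8:24808468-24814624) stood tail to tail at 31.9 kb, ZNF280B (chr22:22838767-22863472) and PRAME (chr22:22890123-22901768) on the same strand at 26.7 kb, and CCDC8 (chr19:46913629-46916841) and PNMA8A (chr19:46969748-46974820) on the same strand at 52.9 kb. No listed gene lay between the genes of these 4 pairs. CKMT1B (chr15:43885252-43897099) and CKMT1A (chr15:43985084-43991420), copies in the same orientation, were 88.0 kb apart with 2 listed genes between them.

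The wider pairs enclosed genes that were expressed in both groups. Between INA and SH3PXD2A, 304 kb apart, lay 5 listed genes, of which 4 had a mean of at least 1 FPKM in both groups. Both genes between PALD1 and UNC5B (644 kb) had such means, as did 2 of 3 between UCHL1 and BEND4 (842 kb). HBQ1, a globin-like gene with 8.47, 5.57 and 6.43 FPKM in control, and CACNA1H, with 5.76, 5.54 and 5.72, were 972 kb apart with 41 listed genes between, 33 of them at 1 or more in control and 25 in shSETD2 libraries.

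The nearest listed gene on either side of each member gave 239 different genes that were not members. Genes that overlap a member were not counted as its neighbours and are given further below. Of these, 152 (63.6%) had a mean of at least 1 FPKM in both groups, 40 (16.7%) only in control, 10 (4.18%) only in shSETD2 libraries and 37 (15.5%) in neither. The shares over all 15167 autosomal genes that are not members were 65.6%, 13.6%, 5.72% and 15.1%. A mean under 0.1 in the shSETD2 libraries was found in 21.8% of the neighbours and in 10.6% of all those genes. No test was made of these differences.

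Single places showed both kinds of surroundings. Next to HOXA11, HOXA10 had a mean of 8.96 FPKM in control and 0.816 in shSETD2 libraries, and next to HOXD13, HOXD11 had 12.9 and 3.61. GAPDH, the neighbour of IFFO1, had 430 in control and 677 in shSETD2 libraries, and ANXA3, 7.25 kb from FRAS1, 0.603 and 13.9. RAB39A, a member with 5.99, 5.89 and 6.2 in control and 0 in each shSETD2 library, lay 0.209 kb from SLC35F2, which had 11.7 and 25.9.

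**Figure D5:**
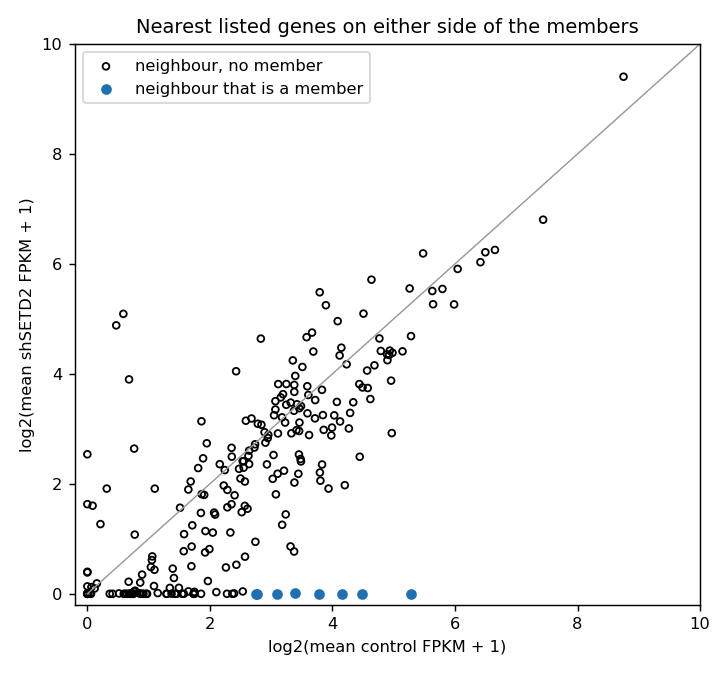
Mean control (x axis) against mean shSETD2 (y axis) expression as log2(mean FPKM + 1) of the nearest listed genes on either side of the members; open points are the 239 neighbours that are not members, blue points members that neighbour another member, and the grey line equality. Many open points lie along the line, and others lie on the x axis with the members. Genes that overlap a member are not counted as its neighbours.

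In all, 19 members overlapped 22 listed genes. The libraries were made with a stranded kit, but the sources used here do not say whether strand was used in quantification, so reads in the shared stretches may not be assigned with certainty. SULF2, with 5.31, 5.87 and 6.28 FPKM in control and 0 in each shSETD2 library, partly overlapped NCOA3 on the opposite strand, which had means of 5.58 and 41.2. GPR27, an orphan receptor with 8.42, 8.11 and 8.4 in control, partly overlapped EIF4E3, which had 4.58 and 0.0389. AC010997.3 overlapped ZNF503 on the same strand, which had 40.3 and 1.46, and POU3F3 lay within AC018730.2, which had 2.49 in control and was listed at 0 in the shSETD2 libraries.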

How the data were processed

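Total RNA of 3 control and 3 shSETD2 libraries was sequenced on stranded libraries. Reads were aligned by the authors with HISAT2 to hg19, which is GRCh37, and genes were quantified with Ballgown and deposited as FPKM per gene and library. Tool versions are not given in the sources used here. A second deposited table repeats these values with the authors' own comparison (group means, fold changes, p-values and q-values) and was not used. Library depth cannot be read from FPKM, because low values were not whole multiples of a single step, so counting error is unknown and precision is given by the spread over 3 libraries. Replicate groups of 3 against 3 cannot reach an exact permutation p under 0.1.

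Members were found on the FPKM as deposited. For the background, the 14068 genes whose FPKM averaged 0.5 or more were fitted on log2(FPKM + 1) with limma 3.58.1 in R 4.3.3 (lmFit, eBayes with an intensity trend, Benjamini-Hochberg adjustment over all genes tested, threshold 0.05) after tests on simulated data. Distances and neighbours use the deposited GRCh37 positions, and promoters the RefSeq table of GRCh38.p14. Other steps used Python 3.11.15, pandas 2.3.3 and matplotlib 3.10.9.

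The members, gene lists and alternatives were chosen with earlier results of these data known, and the classes of function were assigned after the members had been seen. The genes named were the 20 highest members, members of a list, members within 1 Mb of another, the 5 genes inside and outside each limit, and SETD2. Other genes were named after their values were seen. Alternatives covered other limits, pseudocounts of 0.1 and 0.01, filters, scalings, the replicate block and each library left out. Results for all 17 lists are given. A few genes that the rule covers are not reported here.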

Additional observations from a re-analysis of the deposited data

How the results depend on the processing

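The number of members followed the limits of the rule: it was 588 at 1 FPKM in every control library, 339 at 2 and 34 at 10, 74 where a gene had to be listed at 0 in every shSETD2 library, and 68 after quantile normalization, all 68 of which were among the 124. It was between 96 and 165 under the other limits and scalings, and between 126 and 129 with a library left out, where the rule is only relaxed and all 124 members must pass. The number of members within reach of another was 10 at 0.1 Mb, 12 at 0.5 Mb, 31 at 2 Mb and 292 with a control limit of 1 FPKM, and between 20 and 24 with a library left out. The number of genes lower in shSETD2 was 3246 with a mean FPKM of at least 5, where fewer genes and only 39 members were tested, 5274 with median ratio scaling and 5875, against 4706 higher, with quantile normalization, and between 6822 and 7269 with a library left out. The members' median log2 difference was -6.24 and -9.37 with pseudocounts of 0.1 and 0.01, -3.0 with median ratio scaling and -3.06 with quantile normalization, and between -3.17 and -3.13 with a library left out. The sign of a single member's difference is fixed by the rule and is no sign of stability.

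Same-numbered control and shSETD2 libraries did not deviate together (correlations of deviations -0.02, 0.02 and -0.01 over 14068 genes), and the main fit treated the libraries as unpaired. Whether they were prepared in numbered pairs cannot be read from these values. With the replicate block, 7243 genes were lower. The members' median of -3.16 cannot change under the block in a balanced design. The nearby counts with libraries left out, the list counts under other scalings, the values of single members and the count with the first listed promoter only (71 CpG-rich) were chosen after seeing the data. What FPKM of 0 means in reads is unknown, so no lower limit on any member's fall can be given.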

Other observations

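The rule covers autosomes only. On chromosome X, 16 of 268 genes at 5 FPKM or more in every control library (5.97%) were also under 0.1 in every shSETD2 library, against 1.96% of autosomal genes. The difference was not tested. Named after their values were seen, BEX4, of a family of brain-expressed X-linked genes, had 39.5, 40.5 and 41.3 FPKM in control libraries 1 to 3 and was listed at 0 in all shSETD2 libraries. GPC3, a glypican related to the member GPC6, had 10.9, 14.6 and 12.2 in control and was likewise listed at 0. MID1, a microtubule-associated ubiquitin ligase, had 14.7, 12.4 and 14.6 in control and 0, 0.00623 and 0.0189 in shSETD2 libraries. The 3 genes thus had control levels in the range of the autosomal members.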
